A study of Mus musculus with 28 samples.

Results

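The cytochrome P450 family was followed through 28 RNA sequencing libraries of sorted mouse medullary thymic epithelial cells (mTECs). Members were the genes whose symbol is Cyp followed by a family number, a subfamily letter and a gene number, with no pseudogene suffix, and with at least 10 reads summed over the 28 libraries. All 94 symbols of that form passed, with 17 (Cyp2c40) to 82460 (Cyp2a5) reads each, so the family was 94 of the 55011 gene symbols measured. Each library was made from 1000 cells sorted from C57BL/6 thymus after magnetic depletion of CD45+ blood cells. In wild-type (WT) mice, cells inside an entero-hepato gate (n = 3) and cells outside that gate (n = 3) were collected. All other mice carried Foxn1cre(+/-), a Cre recombinase driven by the promoter of the thymic epithelial gene Foxn1. Controls had 1 floxed and 1 intact allele of Hnf4a, written Hnf4a(fl/+), and 1 null and 1 intact allele of Hnf4g, written Hnf4g(+/-). They are therefore not wild type at either gene. The mutants lacked Hnf4a in the epithelium (Hnf4a(fl/fl), Hnf4g(+/-)), Hnf4g through null alleles (Hnf4a(fl/+), Hnf4g(-/-)), or both (Hnf4a(fl/fl), Hnf4g(-/-), called the double mutant). There were 4 control, 3 Hnf4a-mutant, 3 Hnf4g-mutant and 4 double-mutant libraries of mTEClo, labelled post-Aire, and 4 control and 4 double-mutant libraries of mTEChi. Neither age nor sex of the mice is given in the sources used here.

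Cytochrome P450 enzymes are haem-containing monooxygenases. Most sit in the endoplasmic reticulum and take electrons from the reductase POR, with cytochrome b5 as a further donor; a few sit in mitochondria and are fed by ferredoxin. The CYP families with the lowest numbers oxidise drugs, plant compounds and other foreign chemicals and are abundant in hepatocytes and enterocytes, while others make or clear steroids, bile acids, fatty acid derivatives, retinoic acid and vitamin D. mTECs transcribe many genes of peripheral tissues, a process through which developing T cells meet tissue proteins. Several P450 enzymes are known targets of autoimmunity, among them CYP17A1 and CYP11A1 in patients with mutated AIRE. HNF4A and HNF4G are nuclear receptors that bind the promoters of many liver and gut genes.

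Libraries held 4330120 to 8342583 reads. Hnf4a was 31.0 to 65.0 CPM (read counts scaled to a common library size) in the entero-hepato gate, 5.43 to 6.09 CPM outside it, and 1.02 to 7.34 CPM in the libraries of mTEClo and mTEChi. The count of a floxed or null gene includes reads from exons that remain, so these values do not check the genotypes. Epcam, which marks epithelium, was 643 to 2192 CPM in every library, and the cortical epithelial proteasome gene Psmb11 was at most 20.9 CPM. The list of 6 cortical genes that includes Psmb11 summed to 749 to 976 CPM in the entero-hepato gate and 335.5 to 387 CPM outside it. In controls it summed to 693 to 848 CPM in mTEChi and 117 to 258 CPM in mTEClo. Replicate 1 of control, Hnf4a-mutant and Hnf4g-mutant mTEClo had the lowest Aire of its group (206, 186 and 168 CPM, against 413 to 716 CPM in the other libraries of those groups), and results that change without these 3 libraries are given both ways. The 4 double-mutant mTEClo libraries were at 145 to 229 CPM of Aire. Whether each library is from its own mouse is not stated in the labels; a p-value therefore reflects library-to-library spread only, which may be technical. In bulk libraries, fewer cells of a type and less RNA per cell cannot be told apart.

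Sums over the whole family were scaled by each library's total reads alone. The TMM factors behind the CPM of single genes were not applied to them, so these CPM are not on the same scale. The family made up 3016 ± 136 CPM (SD, n = 3) of all reads in the entero-hepato gate and 1199 ± 27.5 CPM (SD, n = 3) outside it. It was 2307 ± 124 CPM in control mTEClo (SD, n = 4), 2482 ± 338 CPM in double-mutant mTEClo (SD, n = 4), 1844 ± 110.0 CPM in control mTEChi (SD, n = 4) and 1950.0 ± 366 CPM in double-mutant mTEChi (SD, n = 4). The TMM factors were 0.809 to 0.843 in the entero-hepato gate and 1.07 to 1.1 outside it. Library totals are multiplied by these factors, so on the scale of single genes the gates would lie further apart. A library had at least 1 read for 63 to 90 of the 94 members. Many members were read unevenly: of the 71 members with at least 10 reads in the gate outside entero-hepato, 41 had more reads in 1 of its 3 libraries than in the other two together, and of the 84 such members in control mTEChi, 26 had more reads in 1 library than in the other three together.

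A single stretch of chromosome 7 carried most of the family's reads. The 13 members between positions 25802475 and 27158668 (GENCODE M21 annotation, GRCm38, which is mm10), from Cyp2s1 to Cyp2t4, held 62.6% of the reads of the 94 members. The 4 most highly read genes per kb of exon lie there. Cyp2a5, which oxidises coumarin and nicotine and is known from liver and olfactory mucosa, had the highest mean over all libraries at 232 CPM per kb. Cyp2f2, known from the secretory club cells of the airway, followed at 175 CPM per kb. Cyp2g1, known from olfactory mucosa, had 149 CPM per kb. Cyp2b19, an arachidonic acid epoxygenase of keratinocytes, had 53.6 CPM per kb. The share of the family's reads taken by these 4 genes was 67.3% in control mTEClo, 38.0% in control mTEChi and 47.5% in the entero-hepato gate. The next members were Cyp26a1, which clears retinoic acid, at 37.3 CPM per kb, and Cyp4f16, of a family of fatty acid hydroxylases, at 28.1 CPM per kb. Cyp3a13, a member of the drug- and steroid-oxidising subfamily 3a that is known from gut, had 25.7 CPM per kb. Behind it were the mitochondrial sterol hydroxylase Cyp27a1 (23.6 CPM per kb) and Cyp2j6, grouped here with the fatty acid and eicosanoid enzymes (20.9 CPM per kb). Cyp1a2, a liver enzyme induced through the aryl hydrocarbon receptor, came next (15.98 CPM per kb).

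The order of the leading members differed between groups. In the entero-hepato gate it was Cyp2a5 (767 CPM per kb), Cyp3a13 (154 CPM per kb), Cyp4f16 (77.7 CPM per kb) and Cyp4v3 (55.9 CPM per kb). In control mTEClo, Cyp2g1 (219 CPM per kb), Cyp2f2 (206 CPM per kb) and Cyp2a5 (182 CPM per kb) led. In control mTEChi, Cyp26a1 (103 CPM per kb) came next after Cyp2a5 (121 CPM per kb). By the mean over its libraries, the entero-hepato gate was the highest of the 8 groups for 38 of the 94 members and control mTEChi for 21. The same count was not made over all genes, so these numbers show nothing particular to the family. A single library could also decide the highest group: of 70 members with at least 10 reads in the entero-hepato gate, 32 had most of them in 1 library. Lengths are those of all annotated exons, and 44 of the 94 members share more than 10% of their 38-base stretches, the read length used, with the transcripts of another gene. For Cyp2a5 that share was 47.8%, mostly with Cyp2a4, so the split of reads between those 2 genes is uncertain. Cyp3a13 shared none.

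**Figure D1:**
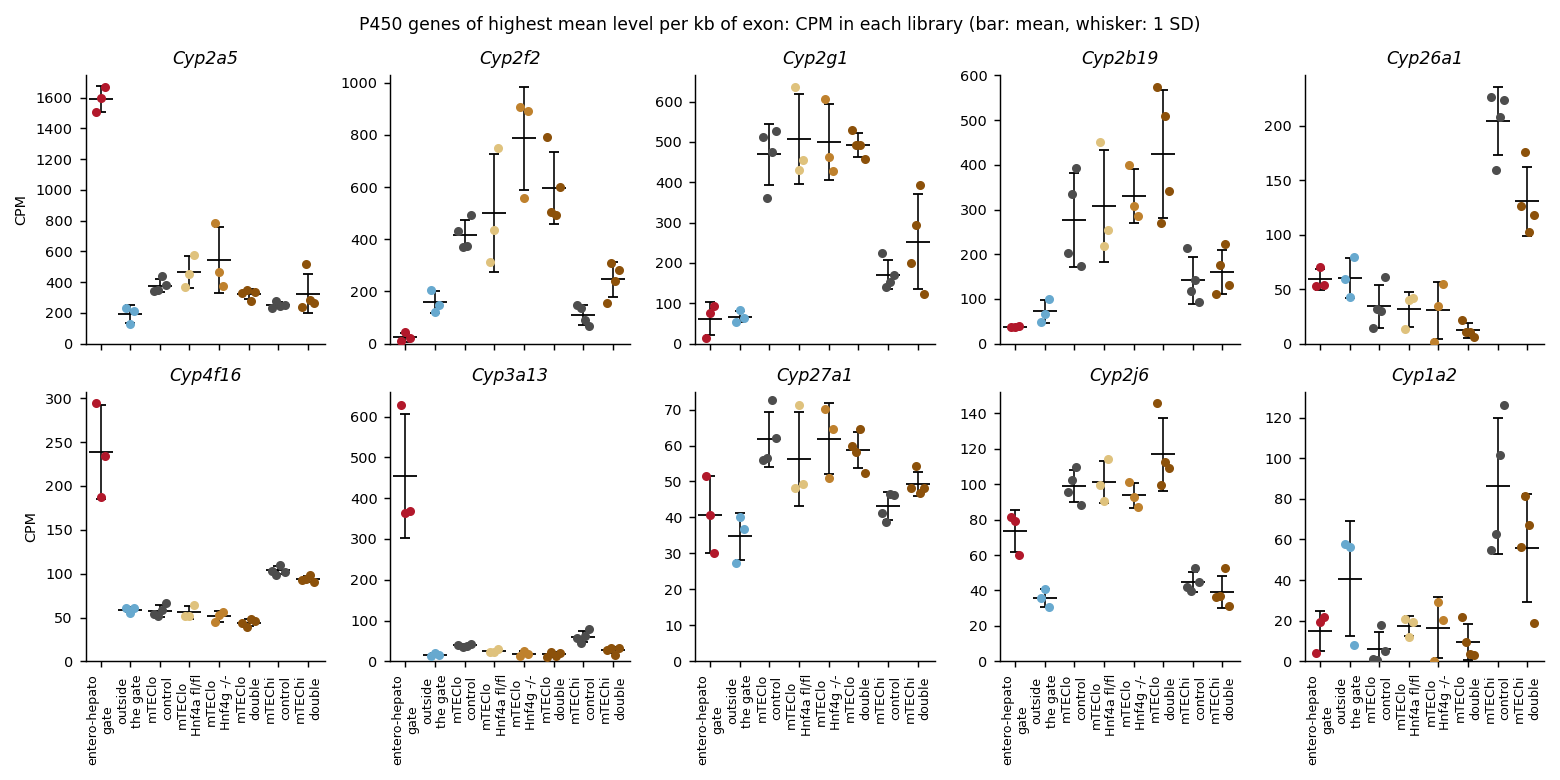
CPM (vertical axis, linear from 0) of the 10 members with the highest mean level per kb of exon in each of the 28 libraries, by group on the horizontal axis; points are libraries, horizontal bars group means and whiskers 1 SD. Cyp2a5, Cyp4f16 and Cyp3a13 were highest in the entero-hepato gate, Cyp2g1, Cyp2f2 and Cyp2b19 in the mTEClo groups, and Cyp26a1 and Cyp1a2 in control mTEChi.

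The comparison of the wild-type gates asked how cells sorted as entero-hepato mTECs differ from other mTECs. Cyp3a13 was 629, 364 and 369 CPM in the 3 entero-hepato libraries and 13.1, 20.4 and 14.5 CPM in the 3 libraries outside the gate. Its lowest entero-hepato library was thus far above every library of the other gate, and the difference was 4.81 on the log2 scale (SE 0.28, edgeR adjusted p = 4.4e-06). Of the 94 members, 53 passed the filter on low counts; 28 of these were called higher in the entero-hepato gate and 6 lower. Over all 16811 genes tested, 44.5% were called, 22.7% as higher and 21.8% as lower. A member could pass the filter through the gate where it is high. The median log2 difference was 1.21 over the 53 members and -0.05 over all genes tested.

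The xenobiotic families 1 to 3 had 28 of 49 members tested, of which 18 were higher and 3 lower. Cyp2a5 reached 1504, 1596 and 1669 CPM in the entero-hepato libraries against 235, 126 and 216 CPM outside, a log2 difference of 3.04 (SE 0.20, adjusted p = 9.0e-06). Subfamilies 2c, 2d and 3a, typical of liver and gut, supplied the largest differences. Cyp2d34 was 90.8, 56.6 and 42.0 CPM against 1.87, 4.20 and 1.41 CPM (log2 difference 4.64, SE 0.43). Cyp3a25 was 55.8, 46.9 and 26.8 CPM against 2.91, 1.26 and 0.604 CPM (4.73, SE 0.47), although 38.5% of its 38-base stretches also occur in Cyp3a59 or other genes. The 3 libraries of each gate were apart for each of these genes. Cyp2d9 differed by 4.31 (54.7 against 2.72 CPM on average), and Cyp2c68 by 5.39 from low levels (12.7 against 0.278 CPM). Cyp2d26, Cyp2c65, Cyp2c29 and Cyp2a4 differed by 4.03, 4.01, 3.92 and 3.08 on the log2 scale. Shared 38-base stretches limit several of these genes too, at 54.1% for Cyp2c68, 44.3% for Cyp2d10, 29.4% for Cyp2d9 and 29.0% for Cyp2c65. Cyp2a4 had 28, 27 and 41 reads against 3, 0 and 7, and shared 50.6%, mostly with Cyp2a5. Its difference may therefore not be separate from that of Cyp2a5. Cyp2d10 (3.30) and Cyp3a16 (3.11) rested on few reads: Cyp2d10 lost its call without replicate 2 of the entero-hepato gate (adjusted p = 0.062) or replicate 3 of the other gate (adjusted p = 0.059), its difference was 5.96 without replicate 2 of the other gate, and Cyp3a16 lost its call without replicate 3 of the other gate (adjusted p = 0.050).

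A few xenobiotic members were lower in the gate. Cyp2f2 was 9.79, 43.8 and 20.3 CPM in the entero-hepato gate and 206, 122 and 149 CPM outside it, a log2 difference of -2.70 (SE 0.43, adjusted p = 0.0011). Its neighbour Cyp2b19 was lower by a smaller amount (-0.94, SE 0.23), and by -0.63 without replicate 3 of the gate outside. Cyp1b1, which oxidises polycyclic hydrocarbons and oestrogens, was lower in every entero-hepato library (4.58, 4.08 and 8.60 CPM against 27.2, 24.8 and 19.7 CPM; log2 difference -2.05, SE 0.33). Cyp2g1 did not pass the test (61.4 ± 40.9 CPM against 67.02 ± 14.4 CPM, SD, n = 3 each; adjusted p = 0.85), and its entero-hepato libraries spread from 15.002 to 92.2 CPM. Cyp1a2 also did not pass (15.1 ± 9.73 CPM against 40.7 ± 28.3 CPM, SD, n = 3 each; adjusted p = 0.14).

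Among the fatty acid and eicosanoid enzymes, 15 of 26 members were tested, 9 were higher and 1 was lower. Cyp4v3, a fatty acid hydroxylase, was 257, 185 and 196 CPM in the entero-hepato gate and 20.8, 25.4 and 23.3 CPM outside (log2 difference 3.18, SE 0.16, adjusted p = 2.4e-06). Cyp4f16 was 294, 188 and 234 CPM against 60.8, 55.4 and 60.6 CPM (2.00, SE 0.16), and Cyp2j6 was higher by 1.02 (SE 0.17). The exception was Cyp4b1, known from lung, at 2.29, 0 and 1.72 CPM against 4.98, 5.46 and 18.1 CPM (-2.83, SE 0.91); it lost its call without replicate 3 of the entero-hepato gate (adjusted p = 0.072) or replicate 3 of the other gate (adjusted p = 0.16).

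No member that acts on cholesterol and bile acids was called higher. Of 6 members, 4 were tested, and both called ones were lower: the oxysterol hydroxylases Cyp39a1 (1.67, 6.12 and 3.44 CPM against 27.4, 19.1 and 22.3 CPM; log2 difference -2.61, SE 0.42) and Cyp7b1 (9.22 ± 0.506 CPM against 21.1 ± 1.58 CPM, SD, n = 3 each; -1.21, SE 0.21). Cyp27a1 did not pass (adjusted p = 0.48). In the steroid group, 2 of 6 were tested and Cyp17a1, which makes androgen precursors, was higher (66.5, 13.2 and 45.1 CPM against 4.36, 6.93 and 4.43 CPM; 2.97, SE 0.55). Cyp26a1 was level between the gates, at 58.9 ± 9.83 CPM and 60.5 ± 18.2 CPM (SD, n = 3 each; log2 difference -0.05, SE 0.21, adjusted p = 0.88).

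**Figure D2:**
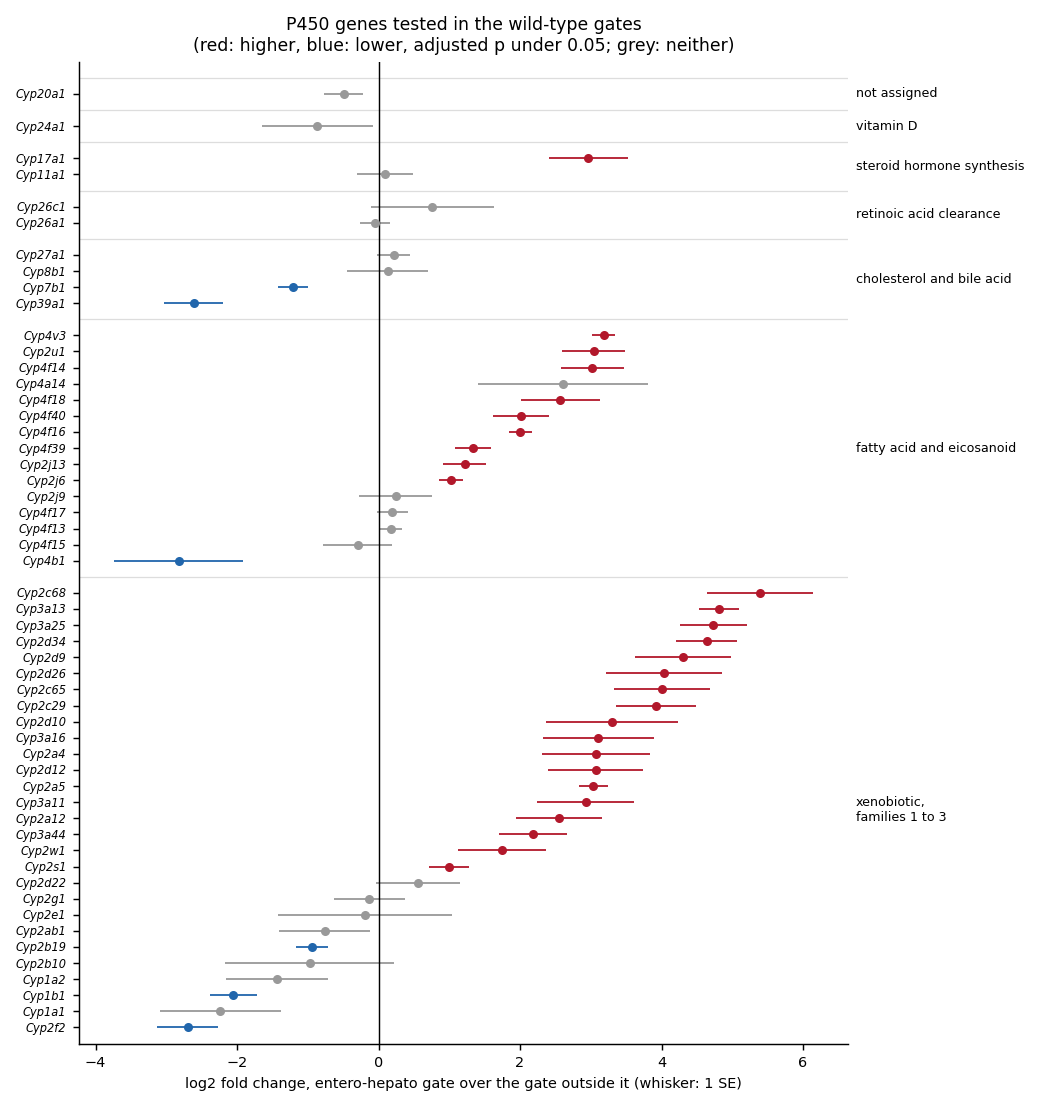
Log2 fold change of the entero-hepato gate over the gate outside it (horizontal axis; whiskers 1 SE) for the 53 members tested, a member per line and grouped by substrate class; red and blue mark members higher and lower at adjusted p under 0.05, grey the others. Members of subfamilies 2c, 2d and 3a and Cyp4v3 lie to the right, and Cyp4b1, Cyp2f2, Cyp39a1 and Cyp1b1 to the left.

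The members were also read by gene cluster. Of the family, 71 members lie in 10 clusters in which neighbours are less than 500 kb apart. On chromosome 5, all 4 tested members of the Cyp3a cluster were higher in the entero-hepato gate, with log2 differences from 2.19 to 4.73; Cyp3a13 (chromosome 5, 137892932 to 137921619, minus strand) lies outside that cluster. The Cyp2c cluster of chromosome 19 had 3 of 14 members tested, all higher (3.92 to 5.39), and the Cyp2d cluster of chromosome 15 had 5 of 6 tested members higher. The chromosome 7 cluster was mixed, with 4 of 8 tested members higher and 2 lower (-2.70 to 3.08). None of the 3 members at the Cyp1a locus of chromosome 9 passed the test. Members of a cluster resemble each other in sequence and can share reads, so they are not independent observations. A member could also pass the count filter through the entero-hepato libraries alone, as Cyp3a16 did (27, 19 and 23 reads against 5, 0 and 2). Such a member could hardly be lower, so the cluster counts are a description. Over all genes tested, 22.7% were called higher and 21.8% lower.

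Promoter sequences are shown for 4 members that were higher in the gate and hold a stretch matching CAAAGTNCA, a motif of the kind bound by HNF4 proteins, and for Cyp3a13, the member with the highest level of subfamily 3a, which holds none. They are the bases before the gene start, read 5′ to 3′ on the gene's strand (RefSeq promoters, GRCm38.p6), with the motif in capitals. Their positions are chr5:145469724-145469973 (Cyp3a16, minus strand), chr19:39741102-39741351 (Cyp2c68, minus strand), chr19:39060756-39061005 (Cyp2c65, plus strand), chr15:82794295-82794495 (Cyp2d26, minus strand) and chr5:137921620-137921869 (Cyp3a13, minus strand). The Cyp2d26 stretch is cut to 201 bases because the GENCODE start lies upstream of the RefSeq start. Its motif begins 58 bases before the RefSeq start.
Cyp3a16: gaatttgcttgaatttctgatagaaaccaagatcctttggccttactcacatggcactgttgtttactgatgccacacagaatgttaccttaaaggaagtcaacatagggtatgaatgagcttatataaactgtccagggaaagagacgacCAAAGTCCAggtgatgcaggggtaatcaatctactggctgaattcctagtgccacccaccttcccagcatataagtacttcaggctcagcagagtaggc
Cyp2c68: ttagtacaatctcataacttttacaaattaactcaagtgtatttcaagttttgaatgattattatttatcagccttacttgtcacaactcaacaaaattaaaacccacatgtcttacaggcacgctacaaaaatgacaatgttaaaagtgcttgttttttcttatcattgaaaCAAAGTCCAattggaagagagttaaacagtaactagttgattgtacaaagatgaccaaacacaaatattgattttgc
Cyp2c65: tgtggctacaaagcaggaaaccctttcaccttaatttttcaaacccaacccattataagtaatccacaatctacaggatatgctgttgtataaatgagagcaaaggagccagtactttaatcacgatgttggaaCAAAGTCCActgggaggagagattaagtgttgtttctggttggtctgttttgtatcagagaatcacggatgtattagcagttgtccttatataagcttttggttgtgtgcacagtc
Cyp2d26: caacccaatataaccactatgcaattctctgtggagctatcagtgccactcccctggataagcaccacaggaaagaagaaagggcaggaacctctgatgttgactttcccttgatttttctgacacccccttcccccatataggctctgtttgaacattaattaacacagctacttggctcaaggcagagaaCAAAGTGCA
Cyp3a13: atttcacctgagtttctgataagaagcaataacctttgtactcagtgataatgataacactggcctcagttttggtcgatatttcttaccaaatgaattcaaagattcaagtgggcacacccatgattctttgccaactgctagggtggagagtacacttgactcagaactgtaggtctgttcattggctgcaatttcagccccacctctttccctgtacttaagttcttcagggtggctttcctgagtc
The motif was searched on both strands in the 300 bases from 250 before to 50 after each start, and was chosen after the values were seen. RefSeq promoters matched 73 of the 94 members, and 14 of these (19.2%) held the motif, against 1.64% of all 27025 genes with a promoter. Of the 24 members called higher in the gate with a promoter, 6 held it, namely Cyp2c65, Cyp2c68, Cyp2d26, Cyp3a11, Cyp3a16 and Cyp3a44, and none of the 4 called lower did. Of the 14 members with the motif, 8 belong to the Cyp2c cluster, and paralogs share promoter sequence. A dioxin-response element, TNGCGTG, was found in Cyp2c68 alone (5.07% of all windows). A match describes letters and is not evidence of binding.

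The genes that support P450 activity were read from lists. Beside the list counts of the gate comparison, 22.7% of all genes tested were called higher and 21.8% lower. Of 9 electron transfer partners, 8 were tested and 4 were higher in the entero-hepato gate: cytochrome b5 genes Cyb5b (log2 difference 2.04, SE 0.15) and Cyb5a (1.27, SE 0.09), the haem-binding Pgrmc1 (0.83, SE 0.10) and the reductase gene Por, which was 132, 129 and 149.8 CPM against 99.8, 81.7 and 89.95 CPM (0.58, SE 0.11). Of 12 genes of haem synthesis and breakdown, 4 were higher and 2 lower. Alas1, the first and rate-limiting enzyme of haem synthesis, was 922, 948 and 1043 CPM against 169, 215 and 183 CPM (2.34, SE 0.12), and the haem oxygenase gene Hmox1 was higher by 1.66 (SE 0.16). Alad was higher by 0.50 and Ppox lower by 0.55 on the log2 scale (-0.55).

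Of 22 regulators that sense foreign compounds and lipids, 17 were tested, 6 were higher and 1 was lower. The vitamin D receptor gene Vdr was 551, 491 and 503 CPM against 104, 126 and 137 CPM (log2 difference 2.06, SE 0.12). The oxysterol receptor genes Nr1h3 (2.23, SE 0.21) and Nr1h2 (0.55, SE 0.09) were higher and the retinoic acid receptor gene Rarg was lower (-1.42, SE 0.24). Nr1i2, which encodes the drug-sensing receptor PXR, was 10.6 to 13.5 CPM in the gate and at most 2.73 CPM outside (2.77, SE 0.63; named after its values were seen). Of 16 liver and gut transcription factors, 13 were tested and 7 were higher, including Hnf4a (3.09, SE 0.30), Hnf4g (2.95, SE 0.17), Gata4 (2.83, SE 0.29) and Onecut2 (4.22, SE 0.52). Of 29 other oxidising and hydrolysing enzymes, 28 were tested, 10 were higher and 5 lower; the first by p were Ephx2 (2.64), Xdh (2.84), Fmo5 (3.77) and Cbr2 (1.55). Cyp51, a P450 of sterol synthesis whose symbol lacks a subfamily letter, was higher by 1.45 (SE 0.15).

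Marker lists of other cells moved with the gate. The summed level of 10 enterocyte genes was 6041 to 8503 CPM in the entero-hepato libraries and 351 to 402 CPM outside, and 9 of the 10 were called higher. Of 7 airway secretory genes, 2 were called higher, Reg3g (log2 difference 3.62) and Bpifa1 (1.37). The sums were 12074 to 21061 CPM against 1099 to 1743 CPM and were mostly Reg3g. The others were not called: Bpifb1 (1.41), Scgb1a1 (1.22), Scgb3a1 (0.72) and Scgb3a2 (1.45) were above 0 and Muc5b (-0.40) below. Scgb3a2, a secretoglobin of airway secretory cells, was at most 11.7 CPM in these 6 libraries. Of 9 myeloid and dendritic genes, 4 were called higher (sums 1079 to 1442 CPM against 422 to 612 CPM), and of 6 erythroid genes 5 were tested and all 5 called higher (167 to 248 CPM against 16.7 to 26.2 CPM). Other lists were lower in the gate: tuft cell markers summed to 107 to 245 CPM against 1315 to 1926 CPM, with 5 of 6 called lower, and ciliated cell markers to 45.8 to 65.1 CPM against 101 to 186 CPM, with 4 of 5 called lower. Of 6 cortical epithelial genes, 3 were called higher and 1 lower (sums 749 to 976 CPM against 335.5 to 387 CPM). No gene of these lists was at 0 in a gate. The part of these cells in the P450 differences was not tested.

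Removal of both Hnf4 genes from mTEClo lowered 1 member past the threshold, Cyp3a13. Its level was 39.6, 36.1, 38.1 and 43.7 CPM in the 4 control libraries and 9.63, 24.1, 13.9 and 21.3 CPM in the 4 double-mutant libraries. The groups did not overlap, and the log2 difference was -1.20 (SE 0.25, adjusted p = 0.034). Of the 94 members 51 were tested, 1 was called lower (1.96% of those tested) and none higher, where 0.74% of all 18775 genes tested were called, 0.581% as lower and 0.16% as higher; 14 members had an unadjusted p under 0.05, as had 2315 of the 18775 genes. The call held without double-mutant replicate 2 (adjusted p = 0.036) or 4 (adjusted p = 0.048). Leaving out any 1 control library, or double-mutant replicate 1 or 3, gave an adjusted p of 0.050 to 0.11 with a log2 difference of -1.24 to -0.9996. Without the 3 low-Aire libraries, Cyp3a13 differed by -1.19 (adjusted p = 0.029), and Cyp26a1 (-1.72, adjusted p = 0.020) and Cyp3a11 (-4.14, adjusted p = 0.041) passed as well. The control left out, replicate 1, had 108 Cyp26a1 reads (204, 203 and 424 in the others) and 2 Cyp3a11 reads (25, 41 and 2). Its omission widens both differences and leaves only controls with more Aire than the double mutants. The passes of Cyp26a1 and Cyp3a11 are therefore no further support.

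In the single mutants no member passed the threshold, and 5 of 51 members in the Hnf4a mutant and 10 of 51 in the Hnf4g mutant had an unadjusted p under 0.05, as had 1130 and 1538 of the 18775 genes. DESeq2 called 0 and 1 of the members in these comparisons. In all genes, edgeR called 0.00533% and 0.0959%. Cyp3a13 was 23.99, 22.3 and 29.7 CPM in the Hnf4a mutant, below all 4 controls (log2 difference -0.65, SE 0.27, adjusted p = 0.83). It was 13.8, 26.1 and 17.9 CPM in the Hnf4g mutant (-1.03, SE 0.27, adjusted p = 0.23), where DESeq2 gave an adjusted p of 0.038. The 3 mutant groups share their controls, so these values are not independent. The most abundant members showed no called difference in any mutant mTEClo group: Cyp2a5 was 378 ± 44.6 CPM in controls and 322 ± 30.8 CPM in double mutants (SD, n = 4 each; log2 difference -0.23, SE 0.19), and Cyp2g1 was 469 ± 75.4 and 493 ± 29.8 CPM (SD, n = 4 each; 0.07, SE 0.15). Cyp2f2 was 430.4, 372, 375 and 491 CPM in controls, 792, 505, 494 and 599.7 CPM in double mutants (0.52, SE 0.23, adjusted p = 0.37) and 907, 559.7 and 891 CPM in the Hnf4g mutant (0.92, SE 0.25, adjusted p = 0.23). Neither mutant group overlapped the controls for this gene.

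In mTEChi, no member passed the edgeR threshold (12 of 59 tested had an unadjusted p under 0.05, as had 2055 of 18413 genes), while DESeq2 called 6. DESeq2 also called more genes than edgeR over all genes, as given in the last section. The edgeR shares below are therefore not the background of its 6 calls. Cyp3a13 was 57.6, 44.7, 61.5 and 79.7 CPM in controls and 28.6, 32.7, 16.1 and 32.3 CPM in double mutants, without overlap (log2 difference -1.15, SE 0.24, adjusted p = 0.052; DESeq2 adjusted p = 0.00039). Over all 18413 genes tested, edgeR called 0.635%, 0.597% as lower and 0.038% as higher. The 5 other members called by DESeq2, named after their values were seen, were Cyp4v3, Cyp3a25 and Cyp26a1 with lower and Cyp2f2 and Cyp2d12 with higher values. Cyp4v3 was 49.2, 43.4, 45.5 and 61.2 CPM in controls and 27.04, 33.8, 23.9 and 28.3 CPM in double mutants (-0.82, SE 0.17, adjusted p = 0.053). Cyp3a25 was 11.9, 3.26, 6.27 and 5.42 CPM against 1.69, 0.495, 0.997 and 1.37 CPM (-2.53, SE 0.53, adjusted p = 0.059). For both genes every double-mutant library was below every control.

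Cyp2f2 was 149, 135, 89.2 and 68.9 CPM in control mTEChi and 155, 308, 242 and 281 CPM in double mutants, again without overlap (1.16, SE 0.25, adjusted p = 0.077). Cyp2d12 was 11.9 ± 4.42 CPM against 33.4 ± 17.5 CPM (SD, n = 4 each; 1.499, SE 0.40, adjusted p = 0.15), and Cyp26a1 was 204 ± 31.1 CPM against 131 ± 31.7 CPM (SD, n = 4 each; -0.64, SE 0.17, adjusted p = 0.16). In edgeR, 5 of these 6 genes passed when a certain library was left out. Cyp3a13 passed in the absence of control replicate 2 (adjusted p = 0.045) and in that of double-mutant replicate 3 (adjusted p = 0.044). Cyp2d12 (adjusted p = 0.0398) and Cyp2f2 (adjusted p = 0.039) passed without double-mutant replicate 1, and Cyp4v3 (adjusted p = 0.042) and Cyp26a1 (adjusted p = 0.030) without double-mutant replicate 2. No other omission gave a pass for these genes. Most of these omissions removed the library nearest the other group, which widens the difference, so the passes are no further support. The double-mutant difference was not called as unequal between mTEChi and mTEClo for any of 67 members tested by edgeR (10 had an unadjusted p under 0.05, as had 2298 of 20095 genes). Over all genes, edgeR called 0.0597%. DESeq2 called 0 of the members. For Cyp3a13 the difference of the differences was 0.04 (SE 0.36).

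**Figure D3:**
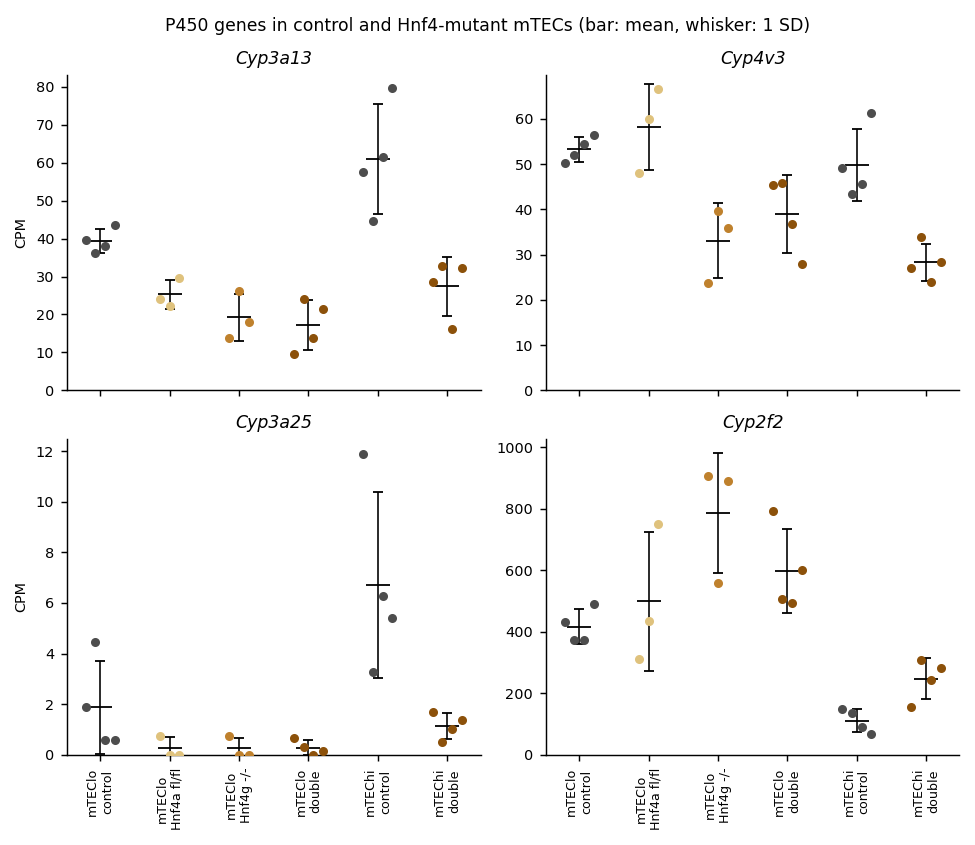
CPM (vertical axes, linear from 0) of 4 members in each control and mutant library, by group on the horizontal axis; points are libraries, horizontal bars group means and whiskers 1 SD (cut at 0). Cyp3a13 libraries of the double mutant lie below their controls in both subsets, and Cyp2f2 libraries of the double mutant lie above them.

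Enterocyte markers moved with these comparisons too. Their summed level was 521 to 726 CPM in control and 219 to 296 CPM in double-mutant mTEClo, and 831 to 979.6 CPM in control and 391 to 461 CPM in double-mutant mTEChi; 6 of the 10 genes were called lower in each, and none was at 0. Airway secretory markers summed to 4724 to 7101 CPM in control and 2614 to 3267 CPM in double-mutant mTEClo, and to 3009 to 3438 CPM and 1493 to 2162 CPM in mTEChi, and Reg3g, which makes up a large part of these sums, was the gene called lower in each (-1.32 in mTEClo and -1.49 in mTEChi). The others were not called and did not follow the sum: the club cell gene Scgb1a1 differed by 0.49 in mTEClo (adjusted p = 0.44) and 0.94 in mTEChi (adjusted p = 0.082), and the median of the 7 genes was -0.49 in mTEClo and 0.42 in mTEChi. Tuft cell markers were 5454 to 7252 CPM in control and 7803 to 8594 CPM in double-mutant mTEClo, with 2 of 6 called higher. Of the genes that support P450 activity, no electron transfer partner and no regulator was called in either subset. Hmox1 was lower in double-mutant mTEClo (46.7, 36.7, 63.2 and 61.8 CPM against 26.2, 26.6, 22.1 and 30.1 CPM; log2 difference -0.99, SE 0.18, adjusted p = 0.017) and in double-mutant mTEChi (131, 155, 145 and 145 CPM against 27.7, 51.2, 53.7 and 65.7 CPM; -1.53, SE 0.21, adjusted p = 0.0035). Xdh was lower in double-mutant mTEChi (-1.44, SE 0.18). The part of these markers, and of Aire, in the P450 differences was not tested.

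The members that stood high in the wild-type entero-hepato gate were then followed into the mutants; the gate comparison used none of those libraries. Of the 28 members higher in the gate, 21 were tested in mTEClo and 19 of these had a log2 difference below 0 in the double mutant, with a median of -0.60. Of all 3695 tested genes higher in the gate, 59.2% were below 0, with a median of -0.06. In mTEChi, 15 of 22 such members were below 0 (median -0.29), close to the 66.6% of all 3732 such genes (median -0.12). The count filter bears on these numbers: a member could be tested because its reads were high in the controls alone, and such a member could hardly be higher in the mutant, so the counts and medians are a description and support no statement about the family. Cyp2d9, for example, had 23, 0, 25 and 41 reads in the control libraries and fewer than 10 in every mutant mTEClo library. The lowest mTEClo values came from members with few reads: Cyp2c68 had 84 reads in the 4 control libraries and 6 in the 4 double-mutant libraries (-3.79, SE 1.14, adjusted p = 0.16), Cyp2d9 89 and 7 (-3.58, SE 1.08, adjusted p = 0.16), Cyp3a11 70 and 5 (-3.77, SE 1.22, adjusted p = 0.19) and Cyp2d34 75 and 13 (-2.56, SE 0.81, adjusted p = 0.18). Cyp3a16 had 10 reads in control and none in double-mutant mTEClo.

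**Figure D4:**
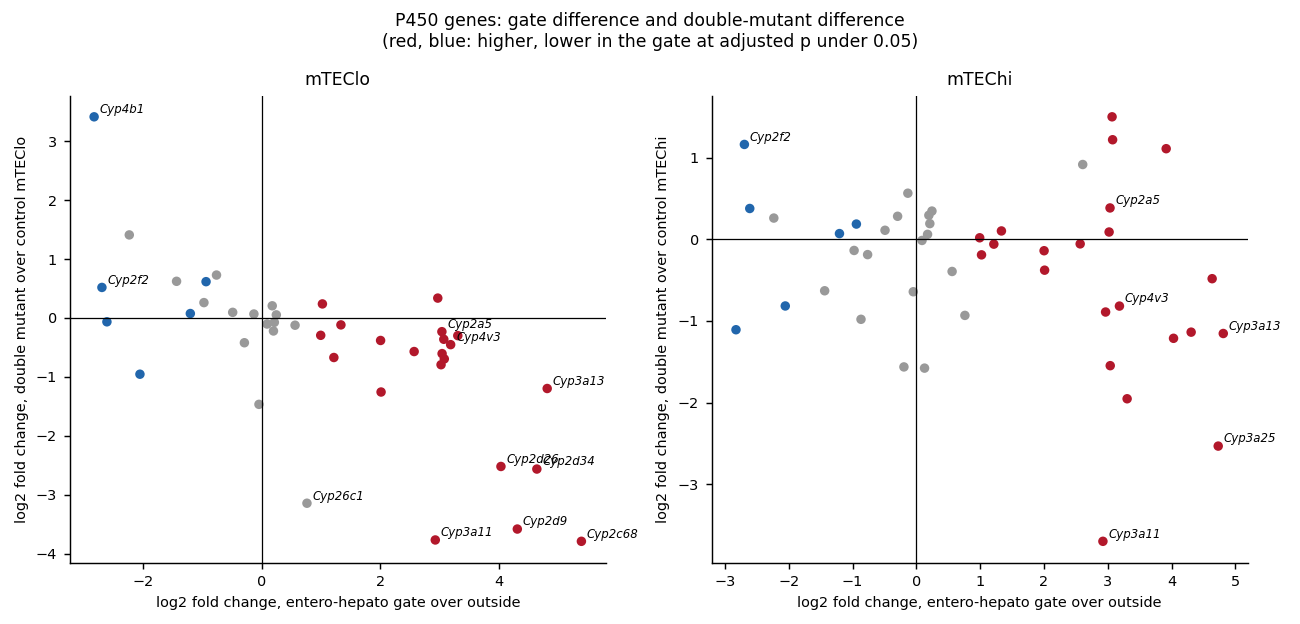
Log2 fold change of the entero-hepato gate over the gate outside it (horizontal axes) against that of double mutant over control (vertical axes), in mTEClo for 42 members and in mTEChi for 47; red marks members higher, blue members lower, in the gate at adjusted p under 0.05. Members at the right of the mTEClo panel lie mostly below 0, while those of the mTEChi panel lie on both sides; Cyp4b1 in mTEClo had 3 reads in the controls, so its height depends on the prior count, and members with few reads could be tested through the controls alone.

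More members were called between the control subsets than between any mutant and its controls. Of 67 members tested, 24 were higher and 10 lower in mTEChi than in mTEClo, where 42.9% of all 20095 genes tested were called, 22.4% as higher and 20.5% as lower. The median log2 difference was 0.90 over the members tested and 0.04 over all genes. Cyp26a1 was 226, 159, 208 and 223 CPM in mTEChi and 14.4, 31.5, 30.1 and 61.1 CPM in mTEClo (2.61, SE 0.35, adjusted p = 1.2e-05). Cyp1a2 was 54.9, 62.8, 101 and 126 CPM against 1.34, 0.463, 18.0 and 4.90 CPM (3.84, SE 0.75), and Cyp1a1, its neighbour on chromosome 9 and the classic target of the aryl hydrocarbon receptor, was 8.24 ± 5.18 against 0.768 ± 0.884 CPM (SD, n = 4 each; 3.42, SE 0.90). The receptor gene Ahr itself was 1.17 to 4.14 CPM in mTEChi and 3.60 to 10.7 CPM in mTEClo (-1.07, adjusted p = 0.059; named after its values were seen).

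Enzymes of steroid synthesis and vitamin D handling were among the members higher in mTEChi. Of 6 steroid members 4 were higher, among them Cyp11a1, which starts steroid synthesis from cholesterol (29.2, 55.7, 26.5 and 34.6 CPM against 10.2, 10.9, 9.49 and 11.8 CPM; 1.81, SE 0.30, adjusted p = 0.00011), and Cyp17a1 (29.9 ± 20.3 against 4.32 ± 4.93 CPM, SD, n = 4 each; 2.82, SE 0.79). Cyp11b2, which makes aldosterone, had 40 reads in control mTEChi and 1 in control mTEClo, a depth-scaled ratio of 41.3 (95% exact interval 6.99 to 1670, counting error only). Of the vitamin D members, 2 of 3 were higher: Cyp27b1, which activates the vitamin (6.303, 14.8, 12.2 and 12.99 CPM against 0.401, 0.154, 1.34 and 2.16 CPM; 3.52, SE 0.77), and Cyp24a1, which degrades it, with 274 reads against 3 (ratio 94.2, interval 31.9 to 460). Cyp24a1 was uneven, at 9.55, 2.89, 0.729 and 22.6 CPM in the 4 mTEChi libraries. Vdr was higher by 0.77 (SE 0.11). Cyp4b1 had 231 reads against 3 (ratio 79.4, interval 26.8 to 388), and it was uneven too, with 6, 53, 6 and 166 reads in the mTEChi libraries.

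Other members higher in mTEChi came from low levels. Cyp2e1, which oxidises ethanol, was 7.66 ± 5.44 against 0.144 ± 0.121 CPM (SD, n = 4 each; 5.60, SE 1.12), and Cyp2b23 was 15.1, 0, 2.92 and 4.07 CPM against 0, 0, 0.593 and 0 CPM (5.11, SE 1.41), or 8.29 without control mTEClo replicate 3. Cyp4f14 was higher by 3.03 (SE 0.93), or by 7.17 without control mTEClo replicate 4, which held nearly all of its mTEClo reads. Cyp4a14 (2.97) was higher by 5.10 without control mTEClo replicate 1 and lost its call without any 1 of 5 other libraries (adjusted p = 0.062 to 0.098: control mTEClo replicates 2, 3 and 4, control mTEChi replicates 1 and 4). Cyp2c23 (2.93) lost its call without control mTEClo replicate 1 or 2 or control mTEChi replicate 1 or 2 (adjusted p = 0.060 to 0.0795). Cyp3a13 was higher by 0.66 (SE 0.25, adjusted p = 0.042), and that call was lost without any 1 library apart from control mTEChi replicate 2 (adjusted p = 0.053 to 0.15; 0.079 without the low-Aire control library).

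Lower in mTEChi were members of the abundant chromosome 7 group and of subfamily 2j. Cyp2f2 was 111 ± 38.0 against 417 ± 56.2 CPM (SD, n = 4 each; -1.88, SE 0.24, adjusted p = 6.9e-06), Cyp2g1 171 ± 36.9 against 469 ± 75.4 CPM (SD, n = 4 each; -1.42, SE 0.25), and Cyp2d12, of the Cyp2d cluster, 11.9 ± 4.42 against 59.8 ± 26.3 CPM (SD, n = 4 each; -2.30, SE 0.44). Cyp2j9 (-1.21), Cyp2j6 (-1.11), Cyp20a1 (-1.02), whose substrate is not known, Cyp7b1 (-0.69) and Cyp27a1 (-0.48) were lower as well. Cyp2a5 was lower by 0.56 on the log2 scale (-0.56, SE 0.18), a call lost without control mTEClo replicate 3 (adjusted p = 0.063). Cyp2b19 (-0.94, SE 0.31) lost its call without control mTEClo replicate 2 or 3 or control mTEChi replicate 2 or 4 (adjusted p = 0.054 to 0.082).

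**Figure D5:**
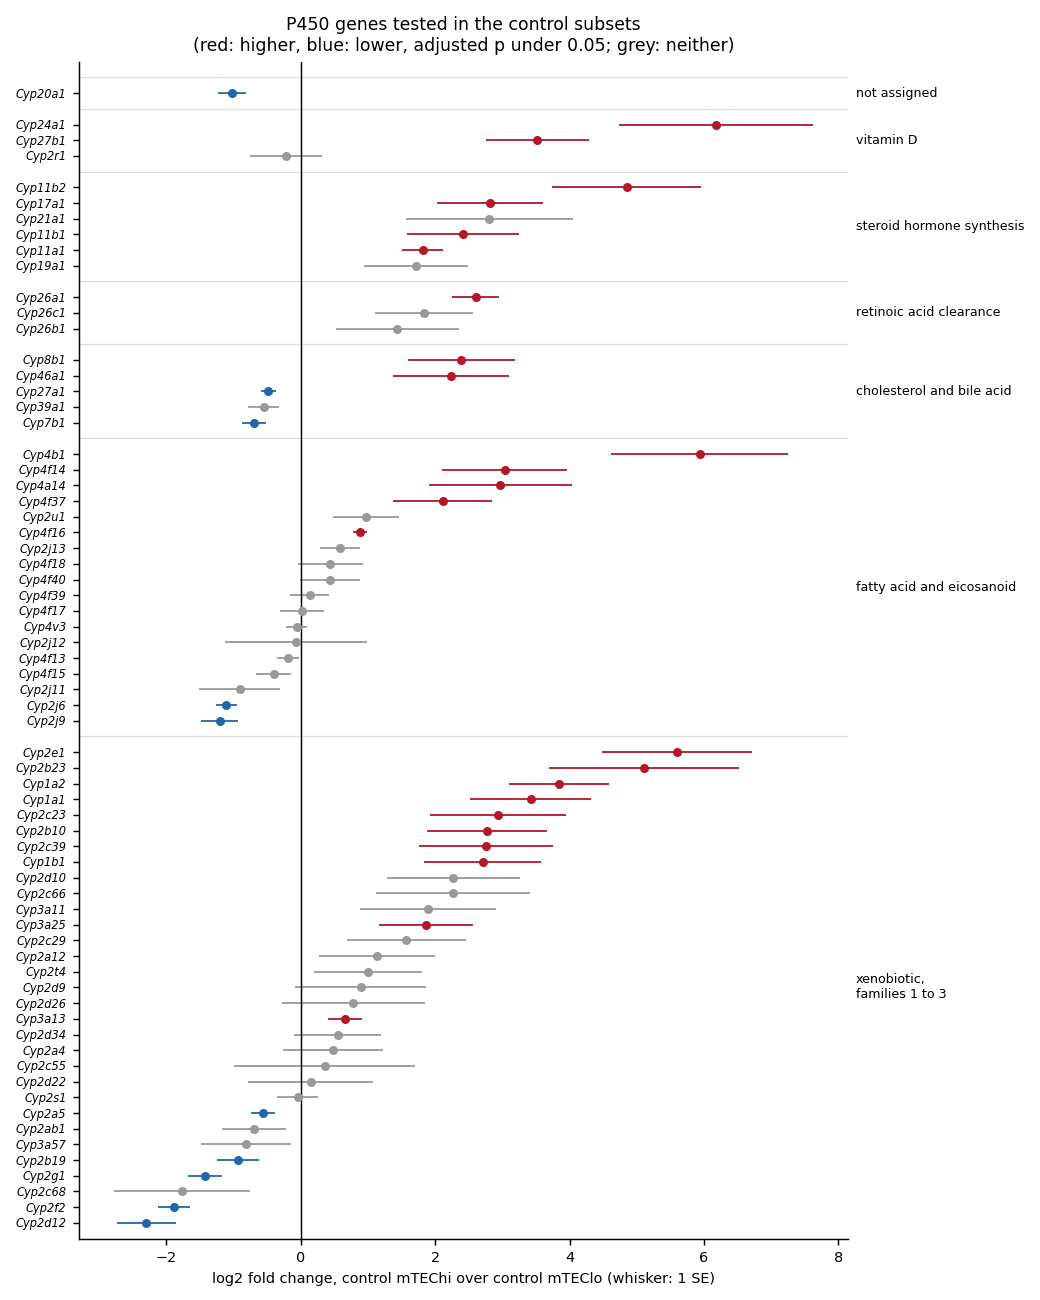
Log2 fold change of control mTEChi over control mTEClo (horizontal axis; whiskers 1 SE) for the 67 members tested, a member per line and grouped by substrate class; red and blue mark members higher and lower at adjusted p under 0.05. Steroid and vitamin D members lie mostly to the right; Cyp24a1, Cyp4b1 and Cyp11b2 had 1 to 3 reads in control mTEClo, so their fitted values depend on the prior count.

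The calls of the 2 large contrasts were set side by side. Of the 49 members tested in both, 5 were higher in the entero-hepato gate and in mTEChi (Cyp17a1, Cyp3a13, Cyp3a25, Cyp4f14 and Cyp4f16), 3 were higher in the gate and lower in mTEChi (Cyp2a5, Cyp2d12 and Cyp2j6), and 3 were lower in both (Cyp2b19, Cyp2f2 and Cyp7b1). Cyp1b1 and Cyp4b1 were lower in the gate and higher in mTEChi. A further 9 members were higher in mTEChi and not called in the gate, among them Cyp1a1, Cyp1a2, Cyp11a1, Cyp24a1, Cyp26a1 and Cyp2e1. The largest part, 16 members, were higher in the gate and not called between the subsets. Of all 3772 genes higher in the gate and tested here, 1066 were higher and 862 lower in mTEChi, beside 5 and 3 of 24 members. For the 3614 genes lower in the gate these numbers were 796 and 1065, beside 2 and 3 of 6 members. Whether the family departs from these shares was not tested.

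Between the control subsets, the supporting genes moved in both directions, as did all genes tested, of which 22.4% were called higher and 20.5% lower. Of 8 electron transfer partners tested, Pgrmc1 was higher (0.50) and Cyb5r3 (-0.78) and Cyb5a (-0.38) were lower. Of 12 haem genes, 3 were higher and 7 lower, with Hmox1 (1.498) and Alas1 (1.009) among the higher and Uros (-0.67) and Alad (-0.48) among the lower. Of 21 regulators tested, 5 were higher and 5 lower: next to Vdr, Nr1h3 was higher (1.505) and Nr1h2 (-0.49) and Rara (-0.68) lower. Of 13 liver and gut transcription factors tested, Cdx1 (1.46) and Gata4 (1.68) were among the higher ones, and Foxa2 (-1.87) was among 2 lower ones. Of 27 other oxidising enzymes tested, 11 were higher, including Nqo1 (1.70), and 6 lower, including Cbr3 (-2.54), Adh1 (-2.50) and Cbr1 (-1.75). Myeloid and dendritic markers were 1618 to 2124 CPM in control mTEChi and 466 to 770 CPM in control mTEClo, with 8 of 9 called higher and none at 0; 8 of 9 thymocyte markers were also called higher. Lower in mTEChi were tuft cell markers (296 to 459 CPM against 5454 to 7252 CPM, 6 of 6 called), keratinocyte markers (129.7 to 155 CPM against 261 to 362 CPM, 5 of 6 called), airway secretory markers (6 of 7 called lower and 1 higher) and ciliated cell markers (4 of 5 called). Of 6 cortical epithelial markers, 4 were called higher and none lower in mTEChi (693 to 848 CPM against 117 to 258 CPM). The part of all these markers in the differences between the subsets was not tested.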

How the data were processed

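RNA from 1000 sorted mTECs per library was primed with oligo(dT), amplified, tagmented and sequenced as read pairs of 38 bases without molecular identifiers, per the labels' protocols. The submitters' processing notes name STAR 2.7.3a, featureCounts and mm10; for annotation, strand setting and multiply mapped reads, the settings were not given in the sources used here. The deposited values are whole-number read counts per gene symbol. Counts of the 28 libraries were analysed with edgeR 4.0.16 (R 4.3.3): TMM scaling, genes kept by filterByExpr (minimum count 10, minimum total 15), quasi-likelihood F test, Benjamini-Hochberg adjustment over all genes tested and a threshold of 0.05. The gates (6 libraries), the mTEClo groups (14) and the mTEChi groups (8) were each fitted alone, and the 16 control and double-mutant libraries of both subsets together. CPM levels use TMM over all 28 libraries, except the sums of the whole family, which use library read totals alone. The procedure was tested on simulated data. Alternatives were DESeq2 1.42.0, RLE scaling, no count filter, a fit on only the 2 groups compared, a replicate block and leaving out each library; leaving out 3 low-Aire libraries was added after seeing the data. Replicate pairs differed beyond sampling noise (chi-square per degree of freedom 6.43 to 27.5 over 36 pairs).

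Members and lists were chosen with earlier results of these data known. Named were Cyp3a13, every member called in a mutant comparison, the 12 called members of largest change per direction with at least 1 CPM in the higher group for the gate and subset comparisons, the 10 highest per kb, up to 4 called genes by p per supporting list, and Cyp51. Members named outside this rule are said to be so or appear as values only. Intervals cover counting error only.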

Additional observations from a re-analysis of the deposited data

Results flagged for a closer look

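In groups of 4 libraries, a library was set apart where its gap to the nearest other, divided by the range of the group, exceeded Dixon's 95% critical value. Of 133 such tests over named members, 11 met this limit, and chance alone gives about 1 in 20. Most concerned members with few reads. Cyp2a5 was 517 CPM in replicate 2 of double-mutant mTEChi against 240.5 to 281 CPM in the others. Cyp1a1 was 15.9 CPM and Cyp7b1 14.7 CPM in replicate 2 of control mTEChi, against 4.52 to 6.42 CPM and 20.2 to 21.2 CPM. Cyp17a1 was 14.7 CPM in replicate 1 of double-mutant mTEClo against 1.32 to 3.58 CPM. Cyp2c68 was 7.71 CPM in replicate 2 of control mTEClo against 1.04 to 2.16 CPM. Cyp4f14 was 4.47 CPM in replicate 4 of control mTEClo against at most 0.148 CPM, and Cyp3a16 was 1.48 CPM in replicate 3 against 0. In replicate 2 of double-mutant mTEClo, Cyp24a1 was 1.91 CPM against at most 0.148 CPM and Cyp2d26 1.76 CPM against 0. Cyp2d34 was 4.73 CPM in replicate 3 of double-mutant mTEChi against 1.99 to 2.46 CPM, and Cyp2d10 was 2.46 CPM in replicate 1 against 0.498 to 0.66 CPM.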

How the results depend on the processing

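The numbers of members called in the gate (34) and between the control subsets (34) stayed within 1.5 times under the alternatives run. The small mutant counts did not. In double-mutant mTEClo, 1 member was called, and 3 with DESeq2, 9 without the count filter, 3 without the low-Aire libraries and 0 to 1 when each library was left out. In double-mutant mTEChi, 0 were called, and 6 with DESeq2, 2 with RLE scaling, 12 without the filter, 1 with the replicate block (Cyp2d12) and 0 to 2 when each library was left out. The Hnf4a mutant had 0, and 4 without the filter; the Hnf4g mutant had 0, and 1 with DESeq2 and 8 without the filter; the difference between subsets had 0, and 1 without the filter. The cause was not tested. The Cyp3a13 difference between subsets (0.04) ranged from -0.16 to 0.24 when each library was left out. Over all genes, calls in double-mutant mTEClo were 139, and 451 with DESeq2, 967 without the filter and 47 to 207 when each library was left out; in double-mutant mTEChi they were 117, 424, 619 and 71 to 188. Of 569 alternative values for 46 named results, 520 kept direction and side of the threshold, 36 lost the threshold, 7 gained it and 6 changed sign. Same-numbered libraries correlated at -0.04 to 0.30 in 25 pairs, 2 of them over 0.1, so the numbers were not taken to pair the libraries. Those 2 pairs joined replicate 1 of control mTEClo with replicate 1 of the Hnf4g mutant (0.30) and of the Hnf4a mutant (0.12). They are the 3 low-Aire libraries.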
